A study of Homo sapiens with 33 samples.

Results

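PEA1 and PEA2 are human high-grade serous ovarian carcinoma (HGSOC) cell lines established from the same patient. PEA1 was grown from a pleural effusion before any treatment, and PEA2 from ascites after treatment with cisplatin and prednimustine. The study treats PEA1 as the platinum-sensitive line and PEA2 as its resistant counterpart. Messenger RNA was sequenced from 3 samples of PEA1 and 3 of PEA2 grown without drug, and these 6 libraries were chosen by their line names out of the 33 libraries of the study. The other 27 libraries came from 9 lines of the OVCAR3, OVCAR4 and PEO families and serve below only to show where PEA1 or PEA2 stood apart. Because each side is 1 line, the site of origin, the treatment received by the patient and the response to platinum cannot be told apart. The labels do not say whether the replicates were grown separately, so p-values measure only the spread between these libraries.

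Carcinoma cells can move between an epithelial state, in which E-cadherin junctions, claudins and keratins hold cells in sheets, and a mesenchymal state driven by the repressors ZEB1, ZEB2, SNAI1, SNAI2 and TWIST1, in which vimentin and matrix genes are raised. HGSOC usually keeps an epithelial state with the Müllerian factors PAX8 and SOX17. Cisplatin acts by crosslinking DNA, and its toxicity depends on uptake, export, detoxification, repair of the crosslinks and the threshold for apoptosis.

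Levels are given as TPM, which are scaled for transcript length and library depth, and line values are the mean ± SD of 3 libraries. Salmon assigned between 29154331 and 43394009 counts to genes in each of the 6 libraries. Libraries of the same line were close to each other (Pearson r across genes 0.954 to 0.987 on log2 values), and libraries of different lines were far apart (0.734 to 0.771). The library PEA1 replicate 2 stood apart from the other 2 of its line. Mitochondrial ribosomal RNA took 7.62% of its counts, against 3.59% and 4.02% in the other PEA1 libraries and 2.74% to 2.93% in PEA2. In that library the 25% of genes with the longest transcripts were below the other 2 PEA1 libraries (median difference -0.62 on the log2(TPM + 1) scale), while the 25% with the shortest differed by 0.07. In PEA1 replicate 3 the longest were higher by 0.54. Within PEA2 the shifts of the longest were smaller, with median differences of 0.25 in replicate 1 and -0.29 in replicate 3. Many genes below were lowest in PEA1 replicate 2 and highest in replicate 3, among them FAT1, ITGB3, ITGA4, EGFR, ZEB1, CDH1, BRCA1, BRCA2, BCL2 and SLFN11. The part of transcript length in the differences between the lines was not tested.

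Of 17204 genes with an adjusted p in the DESeq2 fit, 8088 (47.0%) differed between the lines at an adjusted p under 0.05, 4000 (23.3%) higher and 4088 (23.8%) lower in PEA2. Leaving replicate 1 out of both lines gave 4283 calls, 2189 higher and 2094 lower. The 3 libraries of the lines did not overlap in normalised count for 10650 genes (61.9%). With this many differences, the count of called members in any gene list has to be read against these shares. The plot of calls in each gene list shows how far each list departed from them.

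**Figure D1:**
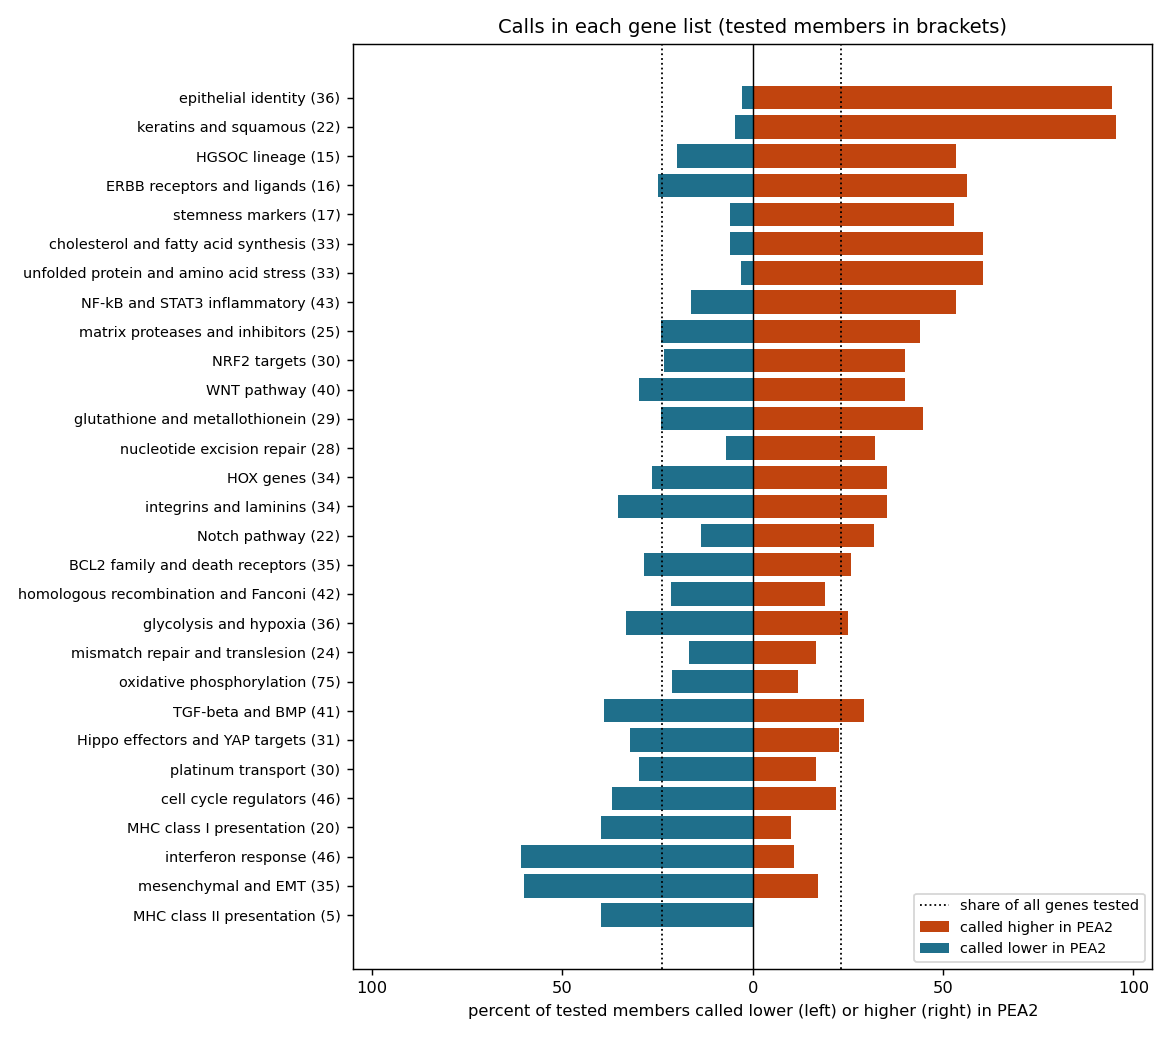
Percent of the tested members of each gene list called higher (right) or lower (left) in PEA2 than in PEA1 by DESeq2, with the number of tested members in brackets and lists ordered by their median log2 fold change. Dotted lines mark the shares over all genes tested, 23.3% higher and 23.8% lower. The epithelial and keratin lists reach 94.4% and 95.5% on the right, and the interferon and mesenchymal lists 60.9% and 60.0% on the left.

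Both lines expressed PAX8, and other lineage genes differed between them. PAX8, the lineage factor of the fallopian tube and of HGSOC, stood at 73.7, 62.8 and 88.2 TPM in the PEA1 libraries and 67.1, 66.4 and 51.7 TPM in the PEA2 libraries, and the libraries overlapped (adjusted p 0.617). WT1 was low in both, at 2.32 ± 0.222 TPM in PEA1 and 2.25 ± 0.370 TPM in PEA2 (adjusted p 0.863). Among HGSOC lineage genes, 8 of 15 tested members were called higher and 3 lower, with a median log2 fold change of 1.80. SOX17, which acts with PAX8, was at 0.205, 0.227 and 0.192 TPM in the PEA1 libraries and 31.4, 37.6 and 20.3 TPM in the PEA2 libraries (log2 fold change 7.25, SE 0.39, adjusted p 6.69e-75). Genes of secreted or cell-surface HGSOC products also rose, namely SPON1 (0.237 to 186), WFDC2 (2.59 to 86.7), MUC16 (0.0696 to 5.06) and MSLN (1.98 to 15.7), all as mean TPM. MUC16, which encodes the serum marker CA125, was still lower in PEA2 than in any of the 9 other lines (6.35 to 126 TPM). The homeobox cofactor MEIS1 (7.80 to 2.01) was lower in PEA2, and MECOM, another marker of HGSOC, was also called lower.

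Markers of other cell types were near 0 or mixed. The T and B cell genes CD3E, CD3D and MS4A1 and the fibroblast genes DCN and COL3A1 were at 0 in all 6 libraries, whereas the leukocyte phosphatase PTPRC, at 3.09, 3.25 and 3.57 TPM, and the endothelial cadherin CDH5, at 8.39, 7.30 and 5.38 TPM, were present in all 3 PEA2 libraries and at 0 counts in PEA1. Summed over 15 leukocyte markers, the level was 11.8 to 24.5 TPM in PEA1 and 55.4 to 58.2 TPM in PEA2, most of it from CD68. The 7 endothelial markers summed to 0.130 to 0.285 TPM in PEA1 and 5.69 to 8.94 TPM in PEA2, almost all of it CDH5. The 10 fibroblast markers summed to 69.8 to 116.3 TPM in PEA1 and 0.693 to 1.17 TPM in PEA2, nearly all of it COL1A1. Mesothelial markers summed to similar ranges, 99.5 to 200.5 TPM and 146.4 to 218.8 TPM. Of 8 tested members, however, 4 (50%, beside 23.3% of all genes) were called higher in PEA2 and 0 lower, with a median log2 fold change of 1.51. The part of other cells in the differences below was not tested.

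PEA2 expressed the epithelial programme that PEA1 largely lacked. In the epithelial identity list, 34 of 36 tested members were called higher and 1 lower, with a median log2 fold change of 5.55 (all genes tested: -0.02). CDH1 (E-cadherin, chr16:68737292-68835537 on GRCh38), the cadherin of epithelial junctions, stood at 1.24, 0.290 and 2.26 TPM in the PEA1 libraries and 228, 207 and 176 TPM in the PEA2 libraries (log2 fold change 7.81, SE 0.38, adjusted p 6.43e-94). EPCAM, an epithelial adhesion molecule (chr2:47369311-47387020), was at 12.6, 14.8 and 14.5 TPM in the PEA1 libraries and 542, 614 and 569 TPM in the PEA2 libraries (log2 fold change 5.48, SE 0.22, adjusted p 7.38e-129). For both genes every PEA2 library lay far above every PEA1 library. The tight junction genes CLDN7 (0.0957 to 296), CLDN4 (0.0875 to 93.7), CLDN3 (0.869 to 71.6) and OCLN (1.06 to 26.8) and the membrane serine protease ST14, at 0.235 ± 0.123 TPM in PEA1 and 90.4 ± 10.6 TPM in PEA2, moved with them.

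Transcription factors and a splicing regulator known to maintain this state were close to undetected in PEA1. EHF, an ETS factor of epithelia (chr11:34621093-34663288), had 0 counts in each PEA1 library and 213, 183 and 187 TPM in PEA2, at least 6532-fold higher against a floor of 3 counts per library. ESRP1, which directs epithelial splicing, had 1 count over the PEA1 libraries and a mean of 107 ± 10.8 TPM in PEA2, a ratio of 21749-fold (95% counting interval 3903 to 859086). GRHL2, which opens epithelial enhancers, had 1 count against 9.45 ± 0.903 TPM, a ratio of 2791-fold (95% counting interval 501 to 110284), and the zinc finger repressor of mesenchymal genes OVOL2 had 1 count against 6.96, 7.05 and 7.16 TPM in the PEA2 libraries. RAB25, a trafficking GTPase of epithelia, and the protease PRSS8 followed the same pattern, with ratios of 2447-fold (95% counting interval 439 to 96688) and 3281-fold (95% counting interval 908 to 27098).

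The exception in the list was CD24, a surface glycoprotein, which was lower in PEA2, at 635, 446 and 777 TPM in the PEA1 libraries and 221, 178 and 115 TPM in the PEA2 libraries (log2 fold change -1.74, SE 0.26, adjusted p 1.15e-10). The desmosomal cadherin DSC2 was not called, at 11.3 ± 2.57 TPM in PEA1 and 12.4 ± 2.49 TPM in PEA2 (adjusted p 0.391).

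Keratins, the intermediate filaments of epithelia, rose with them. Among keratins and squamous genes, 21 of 22 tested members were called higher and 1 lower, with a median log2 fold change of 5.22. KRT7, the keratin of simple gland epithelia, was at 2.96, 3.26 and 2.63 TPM in the PEA1 libraries and 1056, 1216 and 1287 TPM in the PEA2 libraries (log2 fold change 8.61, SE 0.26, adjusted p 1.14e-239). KRT19 went from 0.459 ± 0.234 TPM to 626 ± 25.5 TPM, and the hair keratin KRT81 from 0.463 ± 0.121 TPM to 509 ± 63.1 TPM. KRT8 and KRT18, the first keratin pair of simple epithelia, were already present in PEA1, at 128 ± 7.36 TPM and 206 ± 27.5 TPM, and reached 832 ± 40.6 TPM and 878 ± 65.5 TPM in PEA2. KRT81 and KRT86 are near-identical in sequence, so how their reads were divided is uncertain. With limma on filtered log2 TPM values, 12 keratins passed. The member that fell was KRT4, from 0.705 TPM to 0.0240 TPM. Genes of cornified epithelium appeared at low levels, among them SPRR2A, at 0 counts in PEA1 and 14.6 ± 3.68 TPM in PEA2.

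Mesenchymal genes moved the other way, with exceptions. In the mesenchymal and EMT list, 6 of 35 tested members were called higher and 21 lower, with a median log2 fold change of -1.22. VIM (vimentin, chr10:17228241-17237593), the intermediate filament of mesenchymal cells, stood at 3964, 4861 and 3536 TPM in the PEA1 libraries and 231, 223 and 205 TPM in the PEA2 libraries (log2 fold change -4.10, SE 0.24, adjusted p 3.8e-62). ZEB1, a repressor of CDH1, was at 18.4, 16.1 and 27.02 TPM in the PEA1 libraries and 0.116, 0.102 and 0.182 TPM in the PEA2 libraries (log2 fold change -7.13, SE 0.33, adjusted p 1.98e-101), and ZEB2 at 4.45 ± 0.794 TPM in PEA1 and 0.183 ± 0.0738 TPM in PEA2 (log2 fold change -4.89, SE 0.38, adjusted p 1.01e-36). TWIST1 and SNAI2, of the same class of regulators, had log2 fold changes of -4.45 and -2.23, whereas SNAI1 stood at 6.62, 7.61 and 5.34 TPM in the PEA1 libraries and 6.44, 6.92 and 4.81 TPM in the PEA2 libraries and was not called (adjusted p 0.991). The contractile and matrix genes TAGLN (197 to 4.24), MYL9 (193 to 10.5), COL1A1 (88.4 to 0.879), COL6A2 (112 to 7.68) and LOX (71.4 to 6.48) were also lower in PEA2, as mean TPM. For each of them, the 3 PEA2 libraries lay below the 3 PEA1 libraries. VIM lies in a stretch of chromosome 10 where most genes were lower in PEA2, described below.

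Some genes usually counted as mesenchymal were higher in PEA2. FN1 (fibronectin), a matrix protein of mesenchymal and wounded epithelium, was at 215, 101 and 220.2 TPM in the PEA1 libraries and 5387, 4398 and 3488 TPM in the PEA2 libraries (log2 fold change 4.84, SE 0.25, adjusted p 1.15e-81), which put it among the 10 genes with the largest increase in TPM. S100A4, a calcium-binding protein, was at 17.2, 14.6 and 15.2 TPM in the PEA1 libraries and 485, 486 and 484 TPM in the PEA2 libraries, and SPARC and NT5E (CD73) rose by 3.39 and 2.90 on the log2 scale. CDH2 (N-cadherin) remained expressed in both lines, at 121, 74.6 and 134 TPM in the PEA1 libraries and 89.9, 83.5 and 54.5 TPM in the PEA2 libraries, and its libraries overlapped (adjusted p 0.201). PEA2 carried CDH1 and CDH2 together, and in both lines CDH2 was above all 9 other lines (0.0606 to 45.1 TPM).

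**Figure D2:**
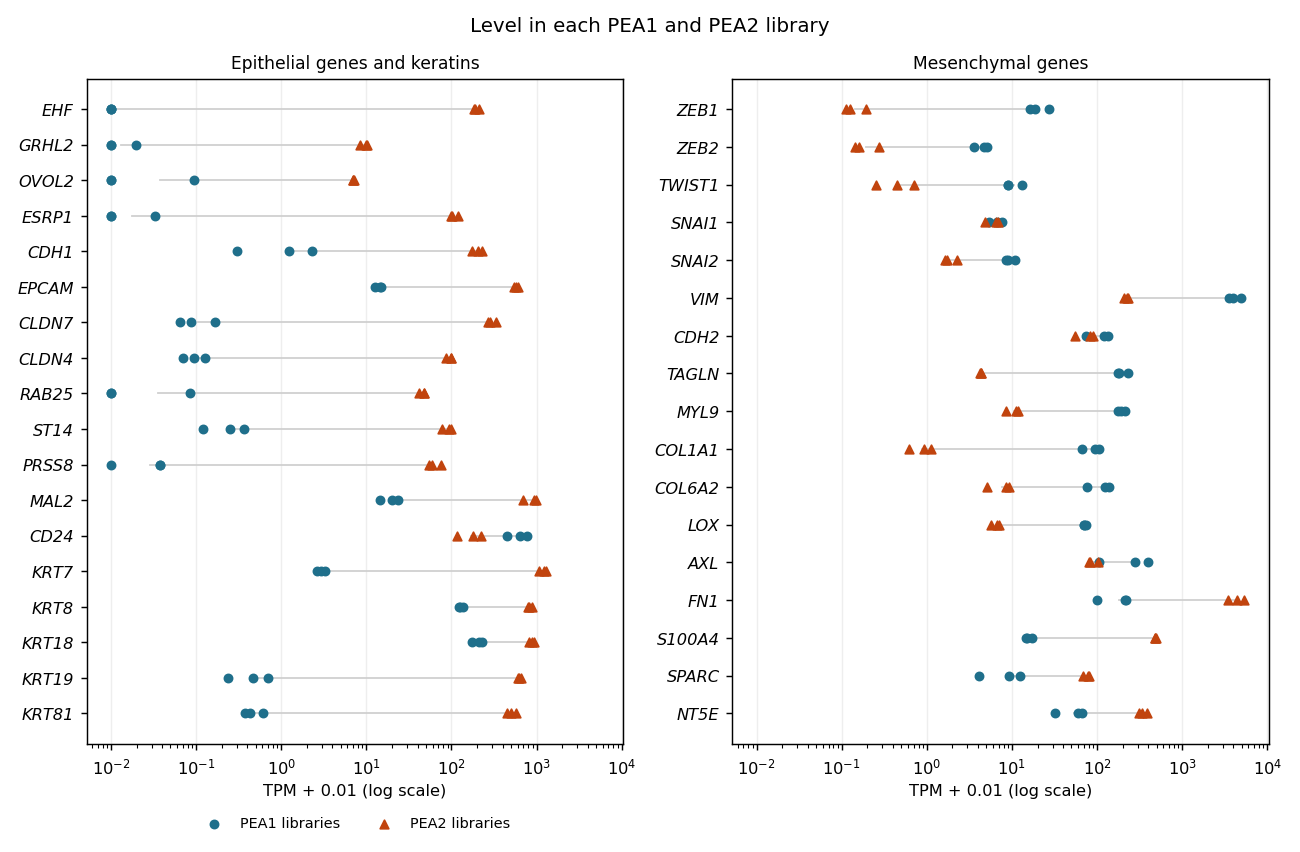
Level of epithelial genes and keratins (left) and mesenchymal genes (right) in the 3 PEA1 (circles) and 3 PEA2 (triangles) libraries, as TPM + 0.01 on a log axis, with grey lines joining the line means. PEA2 libraries sit to the right of PEA1 for each gene on the left except CD24, and to the left for ZEB1, ZEB2, TWIST1, SNAI2, VIM and the contractile and collagen genes, while FN1, S100A4, SPARC and NT5E are reversed and SNAI1 and CDH2 overlap.

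Both PEA lines stood outside the 9 other lines for several of these genes. CDH1 ranged from 34.1 to 100.3 TPM in the other lines, EPCAM from 529.9 to 799.9 TPM and CLDN7 from 88.8 to 149 TPM, and PEA1 lay below the lowest of them in each case. ZEB1 ranged from 0.00352 to 0.0964 TPM and VIM from 0.612 to 384 TPM in the other lines, with PEA1 above all of them. PEA2 lay within the range of the other lines for EPCAM and KRT19 (53.2 to 1446 TPM) but was above all 9 for CDH1, CLDN7, ZEB1, ZEB2 and FN1 (0.0116 to 23.3 TPM). These are line means of 3 libraries, and no test was made across the lines.

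Adhesion genes moved in both directions. Among integrins and laminins, 12 of 34 tested members were called higher and 12 lower, with a median log2 fold change of 0.10. Chains of laminin-332, the basement membrane laminin of epithelia, were higher in PEA2. LAMB3 stood at 3.69, 1.99 and 2.60 TPM in the PEA1 libraries and 204, 194 and 154 TPM in the PEA2 libraries (log2 fold change 6.18, SE 0.24, adjusted p 1.84e-146), and LAMA3 went from 18.3 ± 6.59 TPM to 318 ± 82.2 TPM. ITGB4, which forms the laminin-332 receptor with ITGA6, was at 6.78 ± 4.66 TPM in PEA1 and 60.4 ± 5.74 TPM in PEA2 (log2 fold change 3.54, SE 0.33, adjusted p 1.19e-24), and the collagen receptor ITGA2 rose by 5.08 on the log2 scale. ITGB3, which pairs with ITGAV as a vitronectin receptor, was at 117, 25.5 and 174 TPM in the PEA1 libraries and 2.45, 1.63 and 0.973 TPM in the PEA2 libraries (log2 fold change -5.54, SE 0.40, adjusted p 1.32e-41). ITGA4, a receptor for VCAM1 and fibronectin, was at 16.2, 8.15 and 21.2 TPM in the PEA1 libraries and 0.299, 0.290 and 0.206 TPM in the PEA2 libraries. VCAM1 itself was at 0 counts in PEA2 and 21.1, 10.4 and 16.9 TPM in PEA1. ITGB1, the common beta chain, was the most abundant of the family in both lines, at 2016 ± 541 TPM in PEA1 and 1369 ± 60.6 TPM in PEA2, and was not called (adjusted p 0.119).

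Activators of plasminogen were higher in PEA2 and the gelatinases lower. Among matrix proteases and inhibitors, 11 of 25 tested members were called higher and 6 lower, with a median log2 fold change of 0.51. Tissue plasminogen activator (PLAT) stood at 12.6, 8.53 and 9.90 TPM in the PEA1 libraries and 327, 327 and 323 TPM in the PEA2 libraries (log2 fold change 5.12, SE 0.23, adjusted p 1.51e-106), and urokinase (PLAU) at 166 ± 34.8 TPM in PEA1 and 563 ± 57.6 TPM in PEA2. The urokinase receptor PLAUR rose (50.5 ± 9.25 TPM in PEA1 and 103 ± 9.72 TPM in PEA2). Matrilysin (MMP7), an epithelial metalloproteinase, rose from 7.07 ± 0.930 TPM to 60.0 ± 13.8 TPM. The gelatinases MMP2 (58.1 to 13.5) and MMP9 (10.1 to 1.14) and the membrane metalloproteinase MMP14 (67.6 to 23.3) were lower, as mean TPM. TIMP3, a matrix-bound inhibitor of metalloproteinases, had 0 counts in PEA1 and 20.3, 13.7 and 8.67 TPM in PEA2, at least 482-fold higher, and was expressed in all 9 other lines (16.3 to 94.3 TPM).

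PEA2 expressed a group of inflammatory cytokines and neutrophil chemokines, several of them nearly silent in PEA1. Among NF-kB and STAT3 inflammatory genes, 23 of 43 tested members were called higher and 7 lower, with a median log2 fold change of 0.80. IL1A, an alarmin cytokine, stood at 0.0539, 0.0900 and 0.0507 TPM in the PEA1 libraries and 427, 423 and 469 TPM in the PEA2 libraries (log2 fold change 12.80, SE 0.53, adjusted p 2.32e-125). IL1B had 1 count over the PEA1 libraries and 291, 269 and 245 TPM in PEA2, a ratio of 21153-fold (95% counting interval 3796 to 835545). The products of both genes activate NF-kB through the same receptor. IL8 (CXCL8), a neutrophil attractant, was at 0.355, 0.353 and 0.363 TPM in the PEA1 libraries and 1542, 1552 and 1848 TPM in the PEA2 libraries (log2 fold change 12.27, SE 0.36, adjusted p 1.14e-257).

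Other CXCR2 ligands moved with IL8, CXCL5 to 894, 908 and 618 TPM from 0.192, 0.0864 and 0.0905 TPM, and CXCL1 to 1148, 1375 and 1041 TPM from 67.5, 116.2 and 91.4 TPM. CCL20, which attracts CCR6-bearing lymphocytes, was at 0.658, 0.287 and 0.309 TPM in the PEA1 libraries and 1433, 1483 and 1315 TPM in the PEA2 libraries (log2 fold change 11.82, SE 0.45, adjusted p 9.26e-148). CCL28, an epithelial chemokine, rose from 10.3 ± 3.04 TPM to 688 ± 63.1 TPM. LCN2, an iron-scavenging acute phase protein, reached 2528 ± 437 TPM from 1.48 ± 0.386 TPM, and SAA1 1467 ± 129 TPM from 240.4 ± 42.8 TPM. SAA1 and SAA2, and CXCL1, CXCL2 and CXCL3, are close paralogs whose shared reads may have been divided between them. In the STAT3 ligands the change was smaller, with LIF at 16.96 ± 2.57 TPM in PEA1 and 228 ± 16.4 TPM in PEA2 (log2 fold change 3.89, SE 0.22, adjusted p 1.47e-66) and IL6 at 67.9, 115.6 and 50.9 TPM in the PEA1 libraries and 177, 160.1 and 182 TPM in the PEA2 libraries (log2 fold change 1.33, SE 0.32, adjusted p 0.000153).

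Of the 5 subunits of NF-kB, REL (2.76 ± 2.05 TPM in PEA1 and 4.97 ± 1.39 TPM in PEA2, adjusted p 0.0131) was higher in PEA2 and RELB (28.5 ± 6.26 TPM in PEA1 and 14.3 ± 1.24 TPM in PEA2, adjusted p 0.00328) lower, and the other 3 and STAT3 were not called. NFKB2 was at 38.7 ± 1.39 TPM in PEA1 and 38.3 ± 1.07 TPM in PEA2 (adjusted p 0.702), NFKB1 at 37.6 ± 14.9 TPM in PEA1 and 34.2 ± 5.17 TPM in PEA2 (adjusted p 0.836), RELA at 42.8 ± 11.7 TPM in PEA1 and 36.8 ± 3.89 TPM in PEA2 (adjusted p 0.874) and STAT3 at 51.8 ± 12.9 TPM in PEA1 and 60.0 ± 9.52 TPM in PEA2 (adjusted p 0.187). The chemokine CCL5, which interferon induces, fell, at 23.6, 30.2 and 13.96 TPM in the PEA1 libraries and 0.104, 0.0814 and 0.197 TPM in the PEA2 libraries (log2 fold change -7.35, SE 0.65, adjusted p 7.42e-28), and CXCL10 and CXCL11, of the same kind, had log2 fold changes of -2.14 and -3.87. Among the 9 other lines, the highest mean was 2.33 TPM for IL1B, 6.72 TPM for CXCL5 and 3.98 TPM for CCL20, so PEA2 stood above all of them.

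A letter pattern that NF-kB binds was searched in the proximal promoters of the inflammatory list, which was itself put together largely from known NF-kB and STAT3 targets. The letters GGGA, any base and TTTCC, searched on both strands in 300 bases around the start in RefSeq (GRCh38.p14), were present in 10 of the 37 listed genes with a promoter entry (27.03%) and in 0.579% of all 27305 promoters, which is a description of the sequence and not of binding. The AP-1 letters TGANTCA were in 7 of the 37 (18.92%) and in 7.76% of all promoters, and the E-box CACCTG, which ZEB1 binds, in 9 (24.32%) and 20.6%. Shares are void for the epithelial list (21 of 38 genes with an entry), the mesenchymal list (24 of 38) and the genes silent in PEA1 described below (24 of 45). Of 7 members looked at for their large change, CXCL1 and CXCL5 held this exact NF-kB pattern in the 250 bases before the start. IL8, IL1A, IL1B, CCL20 and LCN2 did not hold it there, and other forms of the NF-kB site were not searched. The 250 bases before the start of CXCL1 and CXCL5 are shown, 5′ to 3′, with the match in capitals.
CXCL1, chr4:73869143-73869392, plus strand: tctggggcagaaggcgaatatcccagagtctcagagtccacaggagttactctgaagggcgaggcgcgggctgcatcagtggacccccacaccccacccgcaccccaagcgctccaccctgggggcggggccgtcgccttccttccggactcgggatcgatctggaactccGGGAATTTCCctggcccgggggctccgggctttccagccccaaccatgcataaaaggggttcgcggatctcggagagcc
CXCL5, chr4:73998678-73998927, minus strand: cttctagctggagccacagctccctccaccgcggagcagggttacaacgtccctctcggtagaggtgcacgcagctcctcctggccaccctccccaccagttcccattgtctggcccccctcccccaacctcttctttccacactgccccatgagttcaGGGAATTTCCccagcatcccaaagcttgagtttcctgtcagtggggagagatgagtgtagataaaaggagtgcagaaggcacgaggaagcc
The match began 79 bases before the start in CXCL1 and 91 bases before it in CXCL5.

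Many interferon-stimulated genes were lower in PEA2. In the interferon response list, 5 of 46 tested members were called higher and 28 lower, with a median log2 fold change of -1.19. The antiviral 2-5A synthetase OAS2 was at 145, 66.8 and 80.5 TPM in the PEA1 libraries and 11.3, 3.92 and 8.66 TPM in the PEA2 libraries (log2 fold change -3.59, SE 0.27, adjusted p 5.19e-40). BST2 (tetherin), which holds budding virus at the membrane, stood at 257, 113 and 242 TPM in the PEA1 libraries and 20.1, 16.1 and 19.3 TPM in the PEA2 libraries (log2 fold change -3.26, SE 0.24, adjusted p 2.61e-39). The ubiquitin-like modifier ISG15 was at 219, 296 and 101 TPM in the PEA1 libraries and 69.8, 64.6 and 75.5 TPM in the PEA2 libraries (log2 fold change -1.32, SE 0.36, adjusted p 0.000915). These 3 genes did not overlap between the lines. The adjusted p of ISG15 was 0.0771 without replicate 1 and 0.0888 without replicate 2 of both lines. STAT2 and IRF9, which carry the signal of type I interferon, were not called (adjusted p 0.214 and 0.0917).

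The 5 members that rose were IRF7, MX2, IFI27, IFITM1 and IFITM3. Of these, IRF7, IFITM1 and IFITM3 lie in chr11:127134-915214, a window of 40 neighbouring genes. In it 31 genes were higher in PEA2 and 1 lower, with a median log2 fold change of 1.23, and the part of position in their rise was not tested. IRF7, the factor that amplifies type I interferon production, had 0 counts in every PEA1 library and 3.53, 3.21 and 4.68 TPM in PEA2, at least 45.0-fold higher (adjusted p 8.35e-13, and 0.0626 without replicate 1), and was at 1 TPM or more in 8 of the 9 other lines. MX2, an antiviral GTPase, was at 3.36, 1.10 and 1.03 TPM in the PEA1 libraries and 22.3, 16.2 and 18.0 TPM in the PEA2 libraries and IFI27 at 30.1, 26.9 and 12.5 TPM in the PEA1 libraries and 233, 113 and 223 TPM in the PEA2 libraries. MX1, the homolog of MX2, fell (82.1 ± 42.5 TPM in PEA1 and 18.6 ± 8.01 TPM in PEA2). IFITM1, IFITM2 and IFITM3 are near-identical, and the called fall of IFITM2 beside the rise of the other members depends on how their shared reads were divided.

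The letters GAAA, any 2 bases and GAAA, the core of the element that interferon-activated factors bind, stood at 2 places in the 250 bases before the start of ISG15, BST2, IFIT1 and IFI44L and at none in OAS1 and MX1, and all 6 genes were called lower in PEA2. The pattern was in 3.65% of all promoters on either strand. The share over the interferon list is void, since only 37 of its 47 genes had a promoter entry. The bases before ISG15, BST2 and IFIT1 are given with matches in capitals (overlapping in ISG15 and BST2) and those of IFIT1 read on the other strand.
ISG15, chr1:1013247-1013496, plus strand: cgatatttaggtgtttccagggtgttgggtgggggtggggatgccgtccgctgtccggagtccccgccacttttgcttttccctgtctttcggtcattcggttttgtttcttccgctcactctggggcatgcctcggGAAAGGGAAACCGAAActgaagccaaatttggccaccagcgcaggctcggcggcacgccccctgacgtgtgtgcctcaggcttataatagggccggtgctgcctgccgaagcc
BST2, chr19:17405631-17405880, minus strand: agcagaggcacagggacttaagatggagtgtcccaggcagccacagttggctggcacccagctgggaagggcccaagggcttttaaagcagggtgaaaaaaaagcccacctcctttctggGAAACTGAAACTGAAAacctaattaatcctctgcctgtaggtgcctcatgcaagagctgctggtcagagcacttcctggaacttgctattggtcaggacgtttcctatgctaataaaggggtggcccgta
IFIT1, chr10:89392373-89392622, plus strand: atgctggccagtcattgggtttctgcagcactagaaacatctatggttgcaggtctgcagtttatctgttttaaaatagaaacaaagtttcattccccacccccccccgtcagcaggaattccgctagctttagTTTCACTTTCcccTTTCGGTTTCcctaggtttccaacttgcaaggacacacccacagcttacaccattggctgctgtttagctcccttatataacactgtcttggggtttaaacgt
IFIT1, an inhibitor of viral translation, was at 68.8 ± 24.5 TPM in PEA1 and 19.8 ± 7.29 TPM in PEA2 (log2 fold change -1.70, SE 0.35, adjusted p 4.73e-06).

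Antigen presentation through MHC class I followed the interferon genes in part. In that list, 2 of 20 tested members were called higher and 8 lower, with a median log2 fold change of -0.34. HLA-B stood at 920.0, 574 and 568 TPM in the PEA1 libraries and 145, 127 and 139 TPM in the PEA2 libraries (log2 fold change -2.17, SE 0.25, adjusted p 4.39e-17), and HLA-C had a log2 fold change of -0.90. TAP1, which carries peptides to class I molecules, was at 45.5 ± 16.8 TPM in PEA1 and 16.3 ± 2.65 TPM in PEA2, and NLRC5, the transactivator of class I genes, at 5.44 ± 1.26 TPM in PEA1 and 1.37 ± 0.108 TPM in PEA2. B2M, the invariant chain, was at 3930.5, 3817 and 2538 TPM in the PEA1 libraries and 2069, 1986 and 2641 TPM in the PEA2 libraries, and was not called (adjusted p 0.0886). Without replicate 1 of both lines, 4 members were called lower, and HLA-C was not among them (adjusted p 0.192). HLA genes are polymorphic and share sequence, which can move reads among them. ERAP1, which trims peptides, was higher in PEA2, at 21.2 ± 11.8 TPM in PEA1 and 39.1 ± 6.38 TPM in PEA2.

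**Figure D3:**
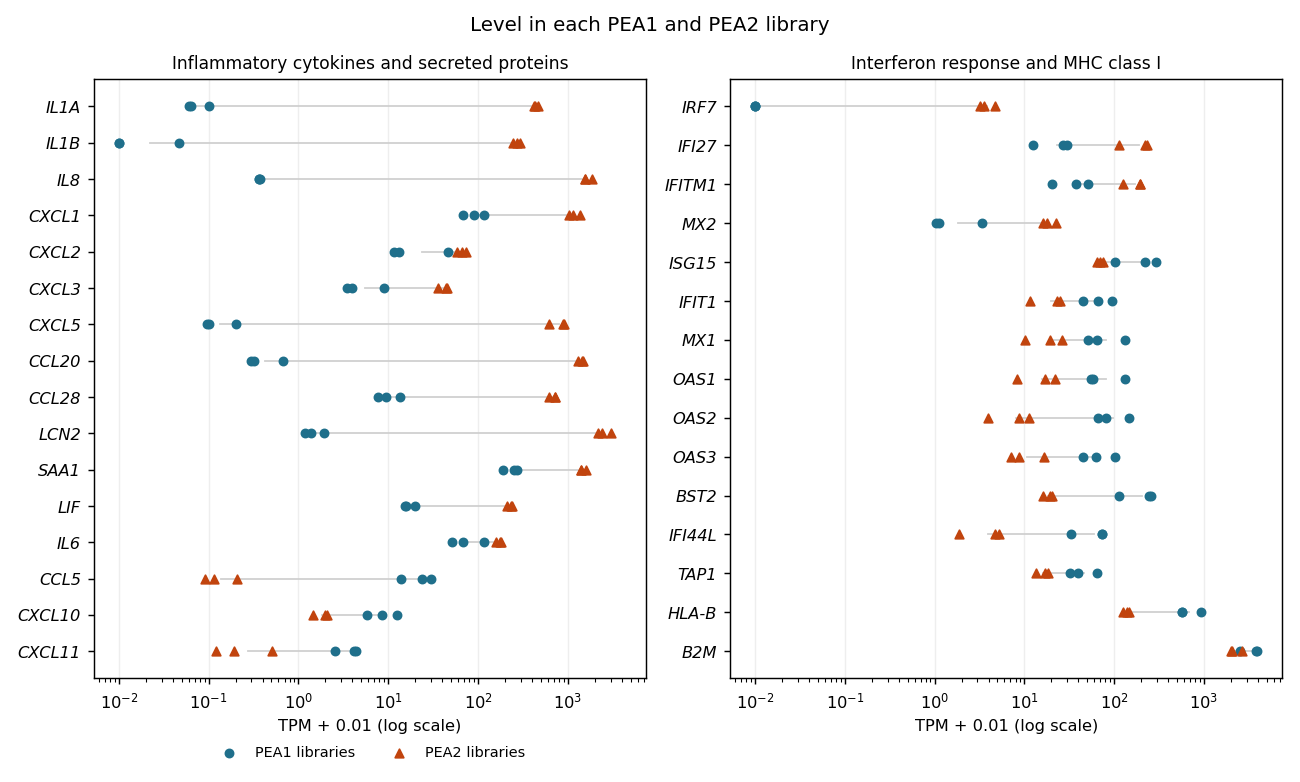
Level of inflammatory cytokines and secreted proteins (left) and of interferon response and MHC class I genes (right) in the 3 PEA1 (circles) and 3 PEA2 (triangles) libraries, as TPM + 0.01 on a log axis. IL1A, IL1B, IL8, CXCL5, CCL20 and LCN2 lie below 2 TPM in PEA1 and above 240 TPM in PEA2, while CCL5, CXCL10, CXCL11 and the genes from ISG15 to HLA-B lie lower in PEA2 and IRF7, IFI27, IFITM1 and MX2 lie higher.

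Ligands of the EGF receptor rose together. Among ERBB receptors and ligands, 9 of 16 tested members were called higher and 4 lower, with a median log2 fold change of 1.69. AREG (amphiregulin), an EGFR ligand, was at 1.53, 1.64 and 1.17 TPM in the PEA1 libraries and 222, 245 and 305 TPM in the PEA2 libraries (log2 fold change 7.56, SE 0.31, adjusted p 2.36e-125), and EREG (epiregulin) at 12.5, 6.53 and 15.97 TPM in the PEA1 libraries and 290.0, 292 and 259.6 TPM in the PEA2 libraries (log2 fold change 4.80, SE 0.25, adjusted p 1.58e-78). HBEGF, TGFA, BTC and EPGN rose too, so that 6 ligands of EGFR were higher in PEA2. AREG, EREG, BTC and EPGN lie with IL8, CXCL1, CXCL2, CXCL3 and CXCL5 in a window of 40 neighbouring genes, chr4:70901851-76311130. In that window 15 genes were higher and 10 lower, with CXCL10 and CXCL11 among the lower, so these rises are not separate in position. EGFR itself varied in PEA1 and was not called, at 55.6, 13.6 and 101 TPM in the PEA1 libraries and 60.4, 44.8 and 38.3 TPM in the PEA2 libraries (adjusted p 0.591). ERBB3, a receptor for neuregulins, rose from 0.369 ± 0.203 TPM to 12.7 ± 1.16 TPM and remained below all 9 other lines (20.7 to 44.6 TPM). NRG1, its ligand, was at 103, 76.5 and 102 TPM in the PEA1 libraries and 21.3, 18.7 and 20.3 TPM in the PEA2 libraries (log2 fold change -2.11, SE 0.22, adjusted p 4.53e-20).

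WNT and TGF-beta pathway genes moved in both directions. In the WNT list, 16 of 40 tested members were called higher and 12 lower, with a median log2 fold change of 0.28. The ligands WNT7A (22.5 to 76.4), WNT7B (5.85 to 57.3) and WNT10A (2.24 to 33.9) rose, while the ligand WNT2B (27.3 to 0.225) and the frizzled receptors FZD2 (19.9 to 4.85) and FZD7 (21.7 to 5.45) fell. AXIN2 and LEF1, which WNT signalling through beta-catenin induces, were low in PEA1, at 0.786 TPM and 0.405 TPM, and lower in PEA2, at 0.0179 TPM and 0.00908 TPM (log2 fold change of AXIN2 -5.57, adjusted p 1.6e-07).

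In the TGF-beta and BMP list, 12 of 41 tested members were called higher and 16 lower, with a median log2 fold change of -0.15. The activin subunit INHBA was at 48.3, 121 and 57.3 TPM in the PEA1 libraries and 545, 674 and 613 TPM in the PEA2 libraries (log2 fold change 3.26, SE 0.29, adjusted p 4.7e-27), and the stress cytokine GDF15 rose from 1.57 ± 0.332 TPM to 97.8 ± 41.8 TPM. Regulators and targets of SMAD signalling moved both ways. The decoy receptor BAMBI was lower, at 23.9, 27.7 and 23.4 TPM in the PEA1 libraries and 0.0354, 0.0559 and 0.0676 TPM in the PEA2 libraries (log2 fold change -8.79, SE 0.71, adjusted p 2.89e-33), as were the inhibitor SMAD7, at 29.7 ± 2.35 TPM in PEA1 and 3.23 ± 1.04 TPM in PEA2, and the target ID3, at 38.0, 40.5 and 33.2 TPM in the PEA1 libraries and 3.65, 3.63 and 1.91 TPM in the PEA2 libraries. SKIL, a target that restrains SMAD proteins, was higher, at 16.5 ± 3.21 TPM in PEA1 and 29.7 ± 5.90 TPM in PEA2 (adjusted p 0.000104). The ligand TGFB2 fell from 82.6 ± 21.1 TPM to 10.8 ± 1.87 TPM, whereas the receptor TGFBR2 rose from 34.5 ± 15.6 TPM to 107 ± 21.8 TPM.

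Genes that carry platinum into or out of cells were called at about the background share. Among platinum transport genes, 5 of 30 tested members were called higher and 9 lower, with a median log2 fold change of -0.25, or 46.7% called beside 47.0% of all genes. The copper importer SLC31A1 (CTR1), through which cisplatin can enter, was at 25.8, 9.52 and 33.4 TPM in the PEA1 libraries and 20.2, 14.3 and 13.8 TPM in the PEA2 libraries (adjusted p 0.545). The copper ATPase ATP7A was at 1.94 ± 0.981 TPM in PEA1 and 1.23 ± 0.316 TPM in PEA2 (adjusted p 0.56), and its relative ATP7B, an exporter, at 1.18, 0.579 and 1.53 TPM in the PEA1 libraries and 0.132, 0.181 and 0.145 TPM in the PEA2 libraries (log2 fold change -2.50, SE 0.52, adjusted p 8.1e-06). ABCC3 stood at 27.8, 25.8 and 28.4 TPM in the PEA1 libraries and 26.0, 27.9 and 24.5 TPM in the PEA2 libraries (adjusted p 0.587). The export pumps ABCC4 (42.8 to 12.4) and ABCC6 (7.92 to 1.08) and ANXA4, at 118 ± 16.4 TPM in PEA1 and 48.6 ± 5.42 TPM in PEA2, were lower in PEA2.

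The efflux pump ABCG2 was higher in PEA2, at 0.966, 0.493 and 0.903 TPM in the PEA1 libraries and 7.26, 5.71 and 4.88 TPM in the PEA2 libraries (log2 fold change 3.06, SE 0.31, adjusted p 4.05e-21), and TMEM205, a membrane protein linked to cisplatin tolerance, was at 49.4 ± 8.15 TPM in PEA1 and 146 ± 15.1 TPM in PEA2 (log2 fold change 1.71, SE 0.26, adjusted p 2.36e-10). Both lines had more ABCG2 than any other line (0.0222 to 0.461 TPM). Of the volume-regulated anion channel, LRRC8A rose (17.2 ± 5.38 TPM in PEA1 and 40.4 ± 3.82 TPM in PEA2), and LRRC8D, the subunit that admits platinum drugs, fell (60.4 ± 4.35 TPM in PEA1 and 31.8 ± 3.35 TPM in PEA2, adjusted p 0.00178). The cation exporter SLC47A1 (MATE1) had 2 counts over the PEA2 libraries and 2.22 ± 1.03 TPM in PEA1, a ratio of 185-fold (95% counting interval 50.9 to 1534).

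Detoxification genes were raised in part. Among glutathione and metallothionein genes, 13 of 29 tested members were called higher and 7 lower, with a median log2 fold change of 0.27, and among NRF2 targets, 12 of 30 tested members were called higher and 7 lower, with a median log2 fold change of 0.45. The metal-binding MT2A was at 1139.6, 2807 and 964 TPM in the PEA1 libraries and 2293, 2864 and 1982 TPM in the PEA2 libraries, where PEA1 replicate 2 lay within the range of PEA2 (log2 fold change 0.81, SE 0.30, adjusted p 0.0179, and adjusted p 0.339 without the replicate term), and MT1E at 135, 333 and 139 TPM in the PEA1 libraries and 487, 574 and 521 TPM in the PEA2 libraries (log2 fold change 1.63, SE 0.31, adjusted p 1.19e-06). Metallothioneins are near-identical copies, so their separate values are uncertain. TXNRD1, a thioredoxin reductase and NRF2 target, was at 408, 237 and 389 TPM in the PEA1 libraries and 1630.0, 1571 and 1515 TPM in the PEA2 libraries (log2 fold change 2.36, SE 0.22, adjusted p 6.54e-25). FTH1, the iron-storing ferritin heavy chain, rose from 3769 ± 405 TPM to 13792 ± 348 TPM, the largest increase in TPM of any called gene. HMOX1, NQO1 and AKR1C3, also NRF2 targets, were lower, with log2 fold changes of -1.84, -0.80 and -1.32.

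Homologous recombination genes were called less often than genes in general, and BRCA1 and BRCA2 were not called. Among homologous recombination and Fanconi genes, 8 of 42 tested members were called higher and 9 lower, with a median log2 fold change of 0.01. That is 40.5% called, beside 47.0% of all genes. BRCA1 stood at 23.3, 13.97 and 30.7 TPM in the PEA1 libraries and 28.7, 24.1 and 21.9 TPM in the PEA2 libraries (adjusted p 0.307) and BRCA2 at 5.32, 2.10 and 6.66 TPM in the PEA1 libraries and 4.61, 3.78 and 2.39 TPM in the PEA2 libraries (adjusted p 0.732), with overlap between the lines. RBBP8 (CtIP), which starts end resection, was at 61.8 ± 2.29 TPM in PEA1 and 185 ± 21.8 TPM in PEA2 (log2 fold change 1.80, SE 0.22, adjusted p 6.38e-15), and PALB2 at 13.2 ± 2.86 TPM in PEA1 and 27.7 ± 5.01 TPM in PEA2. BARD1 and the nuclease scaffold SLX4 were lower, at 5.45 ± 1.62 TPM and 0.712 ± 0.282 TPM in PEA2 against 12.7 ± 3.14 TPM and 2.61 ± 1.31 TPM in PEA1.

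Nucleotide excision repair, which removes platinum crosslinks within a strand, was called less often than genes in general, 39.3% of members beside 47.0% of all genes. In that list, 9 of 28 tested members were called higher and 2 lower, with a median log2 fold change of 0.12. ERCC6 (CSB), which couples repair to transcription, was at 0.924, 0.550 and 1.63 TPM in the PEA1 libraries and 4.14, 3.55 and 2.88 TPM in the PEA2 libraries (log2 fold change 2.01, SE 0.33, adjusted p 5.56e-09). All 3 genes of the kinase module of TFIIH rose, with CDK7 at 45.1 ± 3.52 TPM in PEA1 and 111 ± 11.7 TPM in PEA2, CCNH at 33.9 ± 5.70 TPM in PEA1 and 96.6 ± 17.9 TPM in PEA2 and MNAT1 at 63.0 ± 7.96 TPM in PEA1 and 124 ± 18.5 TPM in PEA2. The helicase subunit ERCC2 fell from 43.2 ± 18.4 TPM to 16.2 ± 2.36 TPM, and ERCC1 was at 44.4 ± 6.33 TPM in PEA1 and 36.0 ± 3.66 TPM in PEA2 (adjusted p 0.489). CDK7, CCNH and the mismatch repair gene MSH3 lie in a stretch of chromosome 5 where most genes were higher in PEA2, described below. Among mismatch repair and translesion genes, 4 of 24 tested members were called higher and 4 lower, with a median log2 fold change of -0.001. That is 33.3% called, also below the 47.0% of all genes. MSH3 rose from 7.42 ± 2.29 TPM to 14.4 ± 2.07 TPM. SLFN11, which blocks stressed replication forks, was at 12.1, 6.17 and 19.6 TPM in the PEA1 libraries and 0.418, 0.470 and 0.321 TPM in the PEA2 libraries (log2 fold change -4.69, SE 0.35, adjusted p 6.09e-40).

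Regulators of apoptosis were called at near the background share in each direction. In the BCL2 family and death receptor list, 9 of 35 tested members were called higher and 10 lower, with a median log2 fold change of 0.05. These are 25.7% and 28.6%, beside 23.3% higher and 23.8% lower over all genes tested. BCL2, an inhibitor of apoptosis, was at 10.5, 6.50 and 16.1 TPM in the PEA1 libraries and 0.320, 0.273 and 0.152 TPM in the PEA2 libraries (log2 fold change -5.58, SE 0.35, adjusted p 1.94e-55). BCL2A1, another inhibitor and an NF-kB target, was at 0.0686, 0.274 and 0 TPM in the PEA1 libraries and 29.8, 31.4 and 29.4 TPM in the PEA2 libraries (log2 fold change 8.05, SE 0.73, adjusted p 1.48e-26). The killer proteins BIK and BID rose to 85.8 ± 6.25 TPM and 113 ± 7.12 TPM from 2.40 ± 1.17 TPM and 35.6 ± 3.67 TPM. BCL2L1 and MCL1, the most abundant inhibitors, were not called, at 149 ± 59.3 TPM in PEA1 and 187 ± 19.3 TPM in PEA2 (adjusted p 0.0563) and 168 ± 16.3 TPM in PEA1 and 117 ± 16.98 TPM in PEA2 (adjusted p 0.124). For BCL2, PEA1 lay above all 9 other lines and PEA2 above 1 of them (0.172 to 1.58 TPM).

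Genes of sterol synthesis were higher in PEA2. In the cholesterol and fatty acid synthesis list, 20 of 33 tested members were called higher and 2 lower, with a median log2 fold change of 0.92. HMGCS1, an early enzyme of the mevalonate pathway, was at 62.5, 36.0 and 63.7 TPM in the PEA1 libraries and 549, 492 and 284 TPM in the PEA2 libraries (log2 fold change 3.17, SE 0.27, adjusted p 4.98e-31). The regulators SREBF1 and SREBF2 had log2 fold changes of 1.42 and 1.58. The exceptions were IDI1 (184 to 99.5) and PMVK (26.5 to 14.5).

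Genes of the unfolded protein and amino acid stress responses were more often higher than lower in PEA2. In the unfolded protein and amino acid stress list, 20 of 33 tested members were called higher and 1 lower, with a median log2 fold change of 0.81. ATF4, a factor of both responses, was at 469 ± 53.2 TPM in PEA1 and 1062 ± 106 TPM in PEA2 (log2 fold change 1.29, SE 0.26, adjusted p 2.61e-06). Its targets ASNS, which makes asparagine, and TRIB3 were at 58.9, 49.3 and 41.4 TPM in the PEA1 libraries and 230.0, 213 and 418 TPM in the PEA2 libraries and at 32.4, 21.3 and 32.0 TPM in the PEA1 libraries and 143, 122 and 256 TPM in the PEA2 libraries. In both, PEA2 replicate 3 was the highest library. The transporters SLC7A5 (92.6 to 416), SLC3A2 (142 to 371) and SLC7A11 (17.9 to 40.5) rose too. Of the unfolded protein response, the factor XBP1 (log2 fold change 1.77), the chaperone DNAJB9 (1.93), the isomerase PDIA4 (1.73) and HERPUD1 (0.58) rose, while the chaperone HSPA5 was at 403 ± 70.5 TPM in PEA1 and 339 ± 27.2 TPM in PEA2 (adjusted p 0.695), and HSP90B1 and CALR were not called either. The single member that fell was VLDLR, a lipoprotein receptor, at 27.7 ± 10.7 TPM in PEA1 and 4.50 ± 0.817 TPM in PEA2.

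Among respiratory chain genes, 9 of 75 tested members were called higher and 16 lower, with a median log2 fold change of -0.04. That is 33.3% called, below the 47.0% of all genes. NDUFA12, of complex I, stood at 539, 719.7 and 450.1 TPM in the PEA1 libraries and 158, 137 and 151 TPM in the PEA2 libraries (log2 fold change -1.80, SE 0.28, adjusted p 1.85e-09), and UQCRC2, of complex III, at 129, 93.9 and 133 TPM in the PEA1 libraries and 396, 362 and 373 TPM in the PEA2 libraries (log2 fold change 1.80, SE 0.21, adjusted p 3e-16).

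Among markers used for stem-like cells, 9 of 17 tested members were called higher and 1 lower, with a median log2 fold change of 1.0005. ALDH1A3, which makes retinoic acid, was at 4.31, 3.31 and 3.62 TPM in the PEA1 libraries and 767, 687 and 603 TPM in the PEA2 libraries (log2 fold change 7.64, SE 0.22, adjusted p 2.15e-260). CD44, the hyaluronan receptor, was at 187, 141 and 181 TPM in the PEA1 libraries and 505, 438 and 397 TPM in the PEA2 libraries (log2 fold change 1.68, SE 0.21, adjusted p 1.01e-14), and PROM1 (CD133) at 0.365, 0.148 and 0.209 TPM in the PEA1 libraries and 13.2, 11.8 and 8.17 TPM in the PEA2 libraries (log2 fold change 5.66, SE 0.36, adjusted p 1.21e-52). These are RNA levels. In the study's western blots and flow cytometry, CD133 protein was scored in the same class in PEA1 and PEA2. ALDH activity was scored in a higher class in PEA2. The pluripotency factors SOX2 and POU5F1 were not called, with SOX2 at 0.0635 ± 0.0763 TPM in PEA1 and 0.0617 ± 0.0272 TPM in PEA2. LIN28B, an RNA-binding protein of early development, had 0 counts in PEA1 and a mean of 1.21 ± 0.406 TPM in PEA2.

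The study also named panels of WNT and EMT, STAT, platinum transport and differentiated-tumour genes, which it chose on these libraries among others, so their direction is not independent evidence. In the WNT and EMT panel 4 of 6 tested members were higher and 1 lower, in the STAT panel 3 of 6 higher and 2 lower, and in the transport panel 1 of 4 lower. Over all genes tested, 23.3% were higher and 23.8% lower. The study gives these genes an expected direction with resistance, and the counts were not set against it. Against its account, SOX17 was higher and ZEB2 lower in PEA2. Of genes it names for STAT signalling and innate inflammation, CD44 and IL6 were higher in PEA2, while CCL5 and BIRC3 were lower. The study places those changes mostly in resistant lines other than PEA2, and it reports CD44 as decreased in some resistant lines. In the differentiated panel 5 of 6 were higher, with ALS2CL (0.767 to 7.90), C1orf116 (4.79 to 31.4), MYO5C (2.63 to 13.4) and SLC37A1 (2.22 to 8.90) and DTX4 rising and PTGER2 not called (adjusted p 0.575).

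PEO1 and PEO4 are another pair of HGSOC lines from 1 patient before and after resistance, and share no library with PEA1 and PEA2, so the change could be compared between the pairs in an interaction test over 12 libraries. Of 17889 genes tested, 8642 (48.3%) differed between the pairs in their change. EPCAM rose in PEA2, whereas it was 649.5 ± 35.4 TPM in PEO1 and 799.9 ± 97.9 TPM in PEO4 (difference of the log2 changes 5.14, SE 0.24, adjusted p 1.43e-99). CDH1 was at 48.9 ± 12.1 TPM in PEO1 and 40.5 ± 12.6 TPM in PEO4 (difference 7.85, SE 0.57, adjusted p 1.16e-40). CD44 was at 324.4 ± 81.4 TPM in PEO1 and 40.5 ± 2.99 TPM in PEO4, lower where PEA2 was higher (difference 4.66, SE 0.25, adjusted p 9.96e-74). VIM was lower in the later line of both pairs, at 383.8 ± 48.6 TPM in PEO1 and 26.3 ± 7.94 TPM in PEO4, and the difference of the changes was -0.29 (SE 0.38, adjusted p 0.561). With PEO6, another later line of the patient of PEO1, in place of PEO4, the difference for VIM was 4.70 (adjusted p 9.78e-24). IL6 was higher in the later line of both pairs, at 1.21 ± 0.347 TPM in PEO1 and 4.26 ± 0.664 TPM in PEO4 (difference -0.57, SE 0.52, adjusted p 0.375).

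Some genes were read in every library of 1 line and in none of the other. At 100 or more normalised counts in each library of 1 line and 0 counts in all 3 of the other, 45 genes were on in PEA2 and 26 in PEA1. Of the 45, 14 reached 1 TPM in at least 5 of the 9 other lines, and 6 of them in all 9, while 15 reached it in none. Of the 26 missing from PEA2, 2 reached 1 TPM in at least 5 other lines and 12 in none.

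Of the genes at 0 counts in PEA1, AGR2, EPS8L1, TIMP3 and SMIM22 were among those at 1 TPM or more in all 9 other lines, and EHF was in 8 of them. AGR2, a disulfide isomerase of mucous epithelia (chr7:16791811-16804999), stood at 252, 219 and 272 TPM in PEA2, at least 1392-fold higher, and at 1.05 to 8.92 TPM in the other lines. Genes on in PEA2 and under 1 TPM in every other line included CCDC129 (ITPRID1), CDH13, CDH5, MYOCD, HS3ST2 and CACNA1S. CCDC129 (chr7:31514090-31658720) was at 84.0, 74.6 and 82.5 TPM and its neighbour PDE1C, a phosphodiesterase (chr7:31616777-32428224), at 24.7, 18.2 and 21.8 TPM. The spans of CCDC129 and PDE1C overlap, and whether any of their reads were shared was not tested.

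The genes at 0 counts in PEA2 and at 1 TPM or more in all 9 other lines were FAT1 and CFI. FAT1, an atypical cadherin that restrains growth (chr4:186587794-186726696), stood at 18.8, 6.88 and 32.5 TPM in PEA1 and 7.84 to 36.4 TPM in the other lines, at least 1618-fold above PEA2. CFI, a protease of the complement system (chr4:109730982-109801999), was at 7.01, 4.65 and 3.71 TPM in PEA1 and 1.09 to 64.9 TPM elsewhere, at least 62.4-fold above PEA2. Both are on the long arm of chromosome 4. Genes on in PEA1 and under 1 TPM in the 10 other lines included TM4SF18, at 91.7, 81.4 and 104 TPM, the adhesion molecule VCAM1, FAM189A1, TINAG and FLT1. The largest fold changes among other called genes also came from near-silence in 1 line, such as the mucin MUC4, with 1 count over the PEA1 libraries and 24.6 ± 7.01 TPM in PEA2, and the guanine exchange factor VAV3, with 2 counts over the PEA2 libraries and 39.5 ± 14.97 TPM in PEA1.

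**Figure D4:**
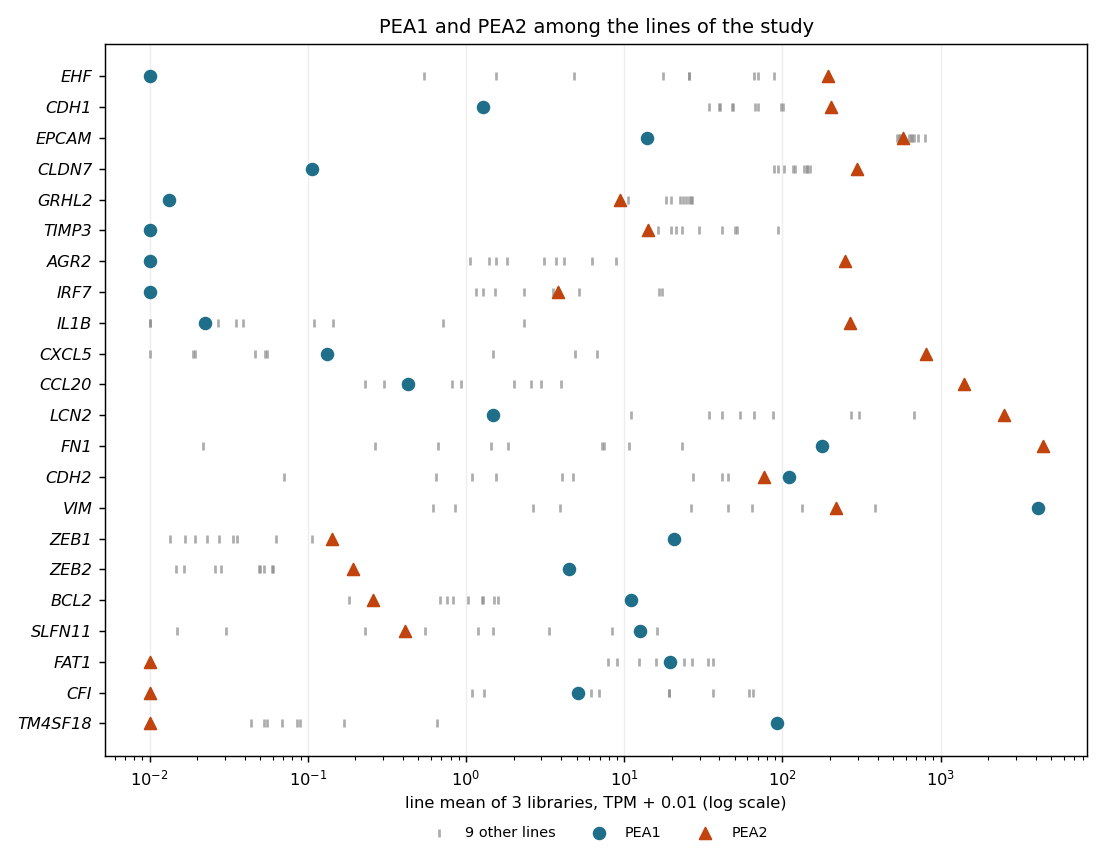
Mean TPM + 0.01 over 3 libraries, on a log axis, of 22 genes in PEA1 (circle), PEA2 (triangle) and each of the 9 other lines (grey ticks). Both lines lie outside the other lines for EHF, CDH1, CLDN7, AGR2 and LCN2, PEA1 below and PEA2 above them, for GRHL2 and TIMP3, both below, and for FN1, CDH2, ZEB1 and ZEB2, both above. PEA1 alone lies outside for EPCAM, VIM, BCL2 and TM4SF18, and PEA2 alone for IL1B, CXCL5, CCL20, FAT1 and CFI.

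Neighbouring genes moved together along several chromosomes. By RefSeq positions on GRCh38.p14, 49.1% of tested genes on chromosome 22 were higher in PEA2 and 7.79% lower, with a median log2 fold change of 0.79. The opposite held on chromosome 18 (16.2% higher, 49.5% lower, median -0.70), chromosome 4 (12.3% and 46.2%, median -0.67) and chromosome 15 (10.8% and 38.6%, median -0.48). In 779 windows of 20 neighbouring genes, the 5th and 95th percentiles of the window medians were -1.001 and 0.95, 15 windows had 15 or more genes lower and 9 had 15 or more higher.

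The lowest window was chr15:25333728-30600708, from UBE3A to ULK4P2 near the start of the long arm, with 0 genes higher, 16 lower and a median of -4.45. The ubiquitin ligase UBE3A was at 90.8 ± 10.4 TPM in PEA1 and 44.0 ± 2.16 TPM in PEA2 (log2 fold change -0.92, SE 0.23, adjusted p 0.00029), HERC2 at 16.1 ± 7.53 TPM in PEA1 and 5.33 ± 1.26 TPM in PEA2, the junction scaffold TJP1 at 87.3 ± 29.6 TPM in PEA1 and 41.5 ± 7.31 TPM in PEA2, and FAM189A1 was at 0 counts in PEA2. Several members of this window, such as the GOLGA8 and ULK4P copies, are near-identical in sequence, and their separate counts are uncertain. A window of zinc finger genes, chr19:56221303-57359898 from ZSCAN5A to ZNF304, had 0 higher and 14 lower, with ZNF667 at 9.39 ± 2.02 TPM in PEA1 and 1.08 ± 0.203 TPM in PEA2 and ZNF471 at 3.04 ± 0.477 TPM in PEA1 and 0.228 ± 0.00624 TPM in PEA2. At the end of the short arm of chromosome 16, chr16:22916-634117 had 17 of 20 genes lower and the next window, chr16:634430-981613, had 16 of 20, among them the repair glycosylase MPG (61.6 to 21.1), the WNT scaffold AXIN1 (25.7 to 11.2) and the ubiquitin ligase STUB1 (110.4 to 21.8), as mean TPM. The second of these windows holds MSLN, its single gene that rose.

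The highest window was chr17:40443450-41823213, from IGFBP4 to FKBP10, with 13 genes higher and 0 lower, and it holds the type I keratins KRT13, KRT15, KRT16, KRT17 and KRT19 with JUP (plakoglobin), at 22.5 ± 5.96 TPM in PEA1 and 168 ± 27.1 TPM in PEA2. On chromosome 1, the window that ends at S100A14 had 12 higher and 4 lower, the higher ones including the epidermal genes SPRR1B and SPRR2A and S100A2, S100A4 and S100A14. In the same window S100A6 rose from 605 ± 279 TPM to 2899 ± 327 TPM and S100A9 from 0 counts to 74.4 ± 17.8 TPM. These windows hold related genes. Others hold genes with little in common. On chromosome 5, all 8 windows from chr5:71455651 to chr5:122153569 had 12 to 16 of 20 genes higher and at most 3 lower, and the 3 windows before them, from chr5:55307989, which hold CDK7, had 10 to 16 higher and at most 2 lower. CCNH and MSH3, described above, lie there, with XRCC4, a factor of end joining, at 13.0 ± 1.76 TPM in PEA1 and 50.6 ± 2.13 TPM in PEA2, RASA1 at 22.6 ± 5.42 TPM in PEA1 and 83.4 ± 7.36 TPM in PEA2 and CAST at 82.8 ± 5.20 TPM in PEA1 and 182 ± 22.5 TPM in PEA2. On chromosome 22, chr22:43528778-46054225 and chr22:46085997-50199595 had 13 and 16 genes higher. On chromosome 4, chr4:169986602-182917611 had 0 higher and 14 lower, and FAT1 lies beyond it on the same arm. In windows of 40 genes, chr10:46455-9295593 had 4 higher and 30 lower (median -1.62), with IDI1, PFKP, PFKFB3 and AKR1C3 among the lower. The next window, chr10:10462550-17617374, had 2 higher and 30 lower (median -1.82), with VIM among the lower. Copy number was not analysed here, and its part in these runs was not tested.

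**Figure D5:**
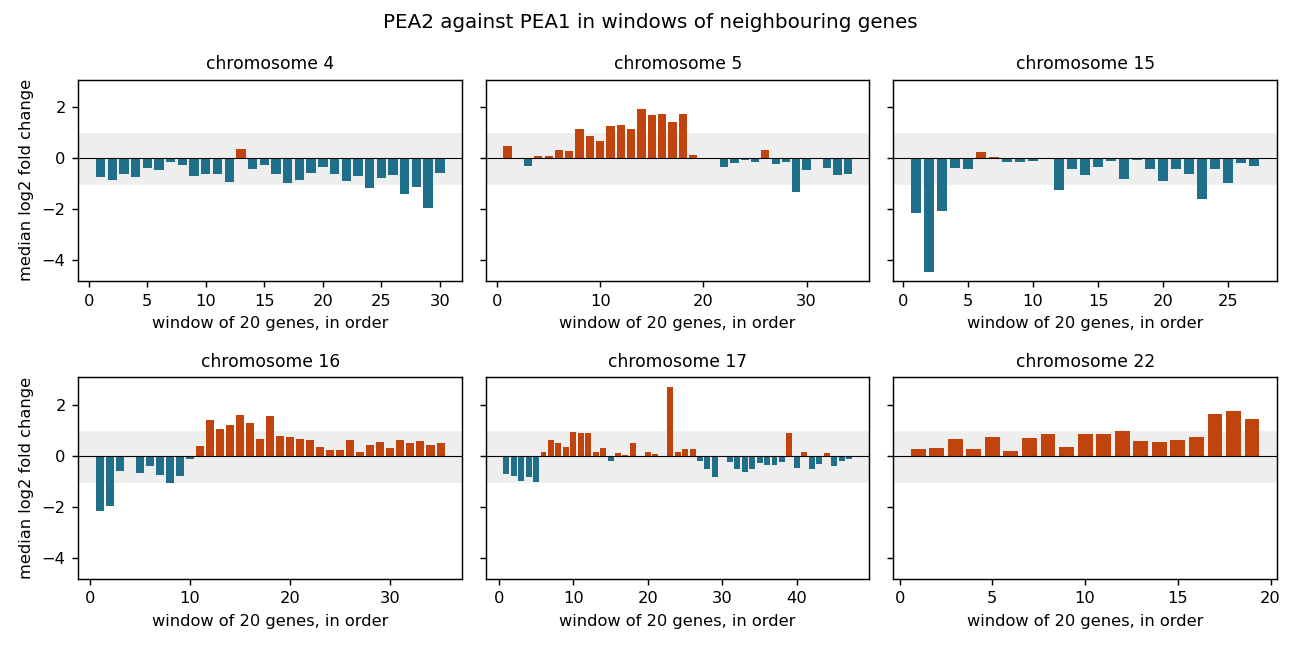
Median log2 fold change (PEA2 against PEA1) of each window of 20 neighbouring genes in chromosome order on chromosomes 4, 5, 15, 16, 17 and 22, with grey bands from the 5th to the 95th percentile of all 779 windows, -1.001 to 0.95. Long runs of one sign are seen on chromosomes 4, 5, 16 and 22, and single windows stand out at the start of chromosome 15 (-4.45) and at the keratin cluster of chromosome 17 (2.73).

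In absolute terms, the 10 largest TPM increases were in FTH1, EEF1A1, RPS15A, FN1, RPL26, LCN2, S100A6, RPL35A, RPL21 and RPS29, with the elongation factor EEF1A1 at 5132 ± 874 TPM in PEA1 and 12554 ± 1589.8 TPM in PEA2 and the ribosomal protein gene RPS15A at 3024 ± 527 TPM in PEA1 and 8192 ± 1755 TPM in PEA2. The largest decreases were in the mitochondrial ribosomal RNA RNR1, which also differed among the PEA1 libraries, in VIM and in TMSB4X, TPM1, PKM, ACTG1, PFN1, NME2, PRDX1 and MYL12A. TPM1, a tropomyosin, was at 2061, 1979.8 and 1987 TPM in the PEA1 libraries and 195, 192 and 125 TPM in the PEA2 libraries (log2 fold change -3.47, SE 0.21, adjusted p 3.3e-57), PFN1 (profilin) at 2473 ± 286 TPM in PEA1 and 944 ± 86.7 TPM in PEA2, TMSB4X (thymosin beta-4) at 7551 ± 1389 TPM in PEA1 and 3846 ± 106 TPM in PEA2 and ACTG1 at 3813 ± 371 TPM in PEA1 and 2158 ± 384 TPM in PEA2. The glycolytic enzyme PKM was at 2867 ± 1157 TPM in PEA1 and 1162 ± 221 TPM in PEA2, the nucleotide kinase NME2 at 1971 ± 264 TPM in PEA1 and 632 ± 48.9 TPM in PEA2 and the peroxidase PRDX1 at 2819.7 ± 260.4 TPM in PEA1 and 1688 ± 195 TPM in PEA2. TPM values of ribosomal protein genes are uncertain where processed pseudogenes share their reads.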

How the data were processed

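RNA-seq of 33 HGSOC cell line samples was analysed for the 6 libraries of PEA1 and PEA2. Per the study's methods, poly(A) RNA libraries were quantified with salmon within nf-core/rnaseq on GRCh38, and the submitters' processing notes name DRAGEN and GRCh38. Whether counting used strand is not given in the sources used here. The authors deposited 2 gene tables, one of estimated counts (87.9% of the values are whole numbers) and one of TPM per gene, and neither was altered beyond rounding the counts to whole numbers. Positions and promoter sequences came from RefSeq (GRCh38.p14), matched by symbol.

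DESeq2 1.42.0 (R 4.3.3) was fitted to the rounded counts of the 6 libraries with line and replicate number as terms, as in the study's design. Calls are at a Benjamini-Hochberg adjusted p under 0.05 with independent filtering, and log2 fold changes are unshrunken, PEA2 against PEA1. Genes with 0 counts in a line are given a lower bound against a floor of 3 counts per library, and genes with 1 to 3 counts over a line a ratio with an exact 95% counting interval, which covers counting error only. The interaction with PEO1 and PEO4 used the 12 libraries. edgeR 4.0.16 and limma 3.58.1, the latter on log2(TPM + 1) and log2(TPM + 0.1) values computed from the deposited TPM, served as alternatives, with other normalisations, filters, no replicate term, all 33 libraries and each replicate left out. Tables were made in Python 3.11.15 with pandas 2.3.3 and SciPy 1.17.1, and the fits were tested on simulated counts.

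The genes named are those of the largest fold change and the largest TPM change among called genes, the largest changes in each gene list, the panels named by the study, the genes of the interaction test and the defining members of lists whatever their result. Other genes named, mainly on chromosome windows, were chosen after their values were seen. Some genes that these rules name are not reported here. The comparison and the gene lists were chosen with earlier results of these data known.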

Additional observations from a re-analysis of the deposited data

Results flagged for a closer look

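Results were singled out here where the change from PEA1 to PEA2 differed from the change from PEO1 to PEO4 by the interaction test (DESeq2, adjusted p under 0.05, 12 libraries), among the 10 genes for which the comparison was reported. The difference of the log2 changes was 5.14 for EPCAM, 7.85 for CDH1, -6.19 for ZEB2 (SE 0.93, adjusted p 3.08e-10) and 4.66 for CD44. In the PEO lines ZEB2 was nearly absent, at 0.0158 ± 0.0141 TPM in PEO1 and 0.0498 ± 0.0182 TPM in PEO4, so its change there rests on few counts. It was 2.09 for C1orf116 (SE 0.42, adjusted p 2.54e-06), which was higher in both PEA2 and PEO4 than in their partners. For ABCC3, an export pump, it was 1.29 (SE 0.37, adjusted p 0.00141), with 11.9 ± 5.04 TPM in PEO1 and 5.02 ± 1.21 TPM in PEO4, and an adjusted p of 0.0639 without replicate 1. For ANXA4 it was -0.66 (SE 0.27, adjusted p 0.0317), with lower levels in PEA2 and PEO4 than in their partners, and it did not pass without the replicate term or without any 1 of the replicates. The remaining 3 genes, VIM, IL6 and ATP7A (difference -1.07, adjusted p 0.0824), did not pass the threshold. With 3 libraries in each line, no test for a single outlying library was made.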

How the results depend on the processing

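Leaving replicates 1, 2 or 3 out of both lines gave 4283 to 6999 genes called, with 2189 to 3620 higher and 2094 to 3379 lower. Of the genes called without replicate 1, 4271 were among the 8088. edgeR gave 8353 calls, TMM scaling 8014, a mean of at least 10 counts 7854, and a fit of all 33 libraries 8562. limma on filtered values gave 2525 genes higher and 3254 lower on log2(TPM + 1) and 2491 and 3224 on log2(TPM + 0.1), and 12 keratins higher in each. On the TPM scales the median over all genes moved to -0.10 and -0.11. Leaving out a replicate left 4 to 11 MHC class I genes called lower, 15 to 17 keratins higher, 21 to 32 interferon genes lower and 34 epithelial genes higher. At thresholds of 10 and 500 counts, 135 and 14 genes were on in PEA2 and at 0 in PEA1, and 130 and 7 on in PEA1 and at 0 in PEA2. In windows of 40 genes the lowest median was -2.74 and the highest 1.75.

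The labels give replicate numbers shared between lines, but the numbers did not pair the samples: same-numbered libraries had correlations of deviations of 0.112, 0.210 and -0.217. The fit without the replicate block gave 9174 calls, 7972 of them shared with the fit that has it, and lost the calls of MT2A and CXCL2 among the genes named. For the difference of the change from PEO4 against PEO1, ANXA4 was at -0.67 without the block (adjusted p 0.0563), -0.62 by edgeR (0.0797) and -0.86 to -0.48 without 1 replicate. For ABCC3 it was 1.16 to 1.47 without 1 replicate, with an adjusted p of 0.0639 without replicate 1. With PEO6 in place of PEO4, VIM turned to 4.70 (adjusted p 9.78e-24) and IL6 to 1.19 (adjusted p 0.0827). The cause was not tested.

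Without replicate 1 of both lines, the calls of ACTG1, ATP7B, CFI, CXCL10, HERPUD1, HLA-C, IDI1, IFITM3, IRF7, ISG15, LEF1, LRRC8D, MT2A, NQO1, PMVK, PRDX1, REL, RELB, SKIL, SMIM22, SPRR2A and TMSB4X were lost (adjusted p 0.0539 to 0.370). Without replicate 2 of both lines, the calls of ISG15, LEF1, LIN28B, PMVK, PRDX1, REL and TMSB4X were lost (adjusted p 0.0565 to 0.285). Without replicate 3 of both lines, the calls of IFITM3 and MT2A were lost (adjusted p 0.132 to 0.200). In the fit of all 33 libraries those of CCDC129, CDH13, CXCL2, HS3ST2, IFITM3, INHBA, MT1E, MT2A, MYOCD, REL, RNR1, SPRR2A and TINAG were lost, and with limma, under at least 1 of its settings, those of ABCC4, ACTG1, ERAP1, HERC2, HERPUD1, IFITM3, ISG15, MSH3, MT2A, PKM, PRDX1, REL, RPL26, RPL35A, RPS29, SKIL, SLX4, TJP1, TMSB4X and WNT7A. Genes that were not called changed sign under some settings. Their log2 fold changes there were ABCC3 -0.066 and -0.064, ATP7A -0.65 to 0.19 without 1 replicate, BRCA2 -0.60 to 0.32 without 1 replicate, EGFR -0.043 as well as -0.40 to 0.93 without 1 replicate, MKI67 -0.66 to 0.47 without 1 replicate, NFKB1 -0.056 and -0.055 as well as -0.20 to 0.33 without 1 replicate, NFKB2 -0.012 and -0.011, RELA -0.16 to 0.045 without 1 replicate, SLC31A1 -0.57 to 0.12 without 1 replicate, SNAI1 -0.11, -0.094, -0.033 and -0.027 as well as -0.093 to 0.14 without 1 replicate, SOX2 -0.080 and -0.00024 and WT1 -0.050 and -0.035. Gained calls, each under 1 or 2 settings, were those of B2M, BCL2L1, BRCA1, EGFR, IRF9, ITGB1, MCL1 and STAT3.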

Other observations

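Genes of the Hippo pathway and the targets of its effectors YAP1 and WWTR1 (TAZ) moved in both directions. In that list, 7 of 31 tested members were called higher and 10 lower, with a median log2 fold change of -0.18. These are 22.6% and 32.3%, beside 23.3% higher and 23.8% lower over all genes tested. WWTR1 fell from 134 ± 37.4 TPM to 27.6 ± 7.02 TPM and its target CTGF (CCN2) from 173 ± 48.4 TPM to 25.2 ± 4.28 TPM, while ANKRD1, another target, rose from 21.1 ± 11.6 TPM to 509 ± 147 TPM and tissue factor (F3), which starts coagulation, from 8.40 ± 4.22 TPM to 371 ± 42.5 TPM. In the Notch list, 7 of 22 tested members were called higher and 3 lower, with a median log2 fold change of 0.07. That is 45.5% called, beside 47.0% of all genes. Among HOX genes, which set position along the body axis, 12 of 34 tested members were called higher and 9 lower, with a median log2 fold change of 0.11, with HOXB8 at 7.87 ± 1.04 TPM in PEA1 and 68.2 ± 7.93 TPM in PEA2 and HOXB4 at 17.8 ± 1.39 TPM in PEA1 and 6.85 ± 0.891 TPM in PEA2.

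Among cell cycle regulators, 10 of 46 tested members were called higher and 17 lower, with a median log2 fold change of -0.34. Cyclin D3 (CCND3) fell from 176 ± 6.24 TPM to 24.3 ± 6.15 TPM, and the CDK4 and CDK6 inhibitor CDKN2C from 35.4 ± 3.75 TPM to 5.41 ± 0.905 TPM. The inhibitor CDKN1A (p21) rose from 4.90 ± 1.80 TPM to 15.8 ± 1.30 TPM, and the proliferation marker MKI67 was not called (adjusted p 0.705). Among glycolysis and hypoxia genes, 9 of 36 tested members were called higher and 12 lower, with a median log2 fold change of 0.0049. The phosphofructokinase PFKP fell from 262 ± 97.2 TPM to 59.0 ± 6.55 TPM and PFKFB3, which activates it, from 76.2 ± 19.5 TPM to 9.75 ± 2.37 TPM, whereas the hypoxia targets VEGFA and EGLN3 rose to 137 ± 15.7 TPM and 23.7 ± 5.57 TPM from 39.1 ± 11.7 TPM and 2.28 ± 0.707 TPM. Of the MHC class II genes, 0 of 5 tested members were called higher and 2 lower, with a median log2 fold change of -2.30, and CD74, the invariant chain, fell from 101 ± 15.4 TPM to 18.8 ± 3.10 TPM. Of the cancer-testis antigens only 1 had enough counts to be tested, and it was not called.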
